A study of Homo sapiens with 24 samples.

Results

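The feedback regulators, LGR receptors and target genes of WNT/beta-catenin signalling were followed by RNA-seq in PEO1 and PEO4, established high-grade serous ovarian carcinoma lines. The 10 genes were NOTUM, AXIN2, LEF1, TCF7, LGR4, LGR6, DKK1, RNF43, ZNRF3 and CTNNB1, taken by name from the 28277 genes listed in each of 2 count tables, and all 10 had a row in both. They were described over 8 conditions of 3 replicate libraries each, 24 libraries in all. The study asked how PEO4, which is resistant to cisplatin, differs from PEO1, which is sensitive, and how each line responds to pyridostatin (PDS), a small molecule that binds DNA G-quadruplexes (G4s).

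The table of the A lines held untreated PEO1 A, which carries an inactivating BRCA2 mutation although its genotype is labelled WT, and untreated PEO4 A, labelled WT. The study states that PEO4 carries a BRCA2 reversion that restores the reading frame. BRCA2 status and line therefore differ together in the A pair. The table of the B lines held PEO1 B, labelled BRCA2+ because BRCA2 function is restored in it, and PEO4 B, labelled WT, each untreated or given 5 µM PDS for 2 or 6 h. All 8 conditions were monocultures of human ovarian adenocarcinoma cells, and each is 1 established cell line, so the replicates stand for libraries of a line and not for tumours. The study speaks of biological replicates, but the labels do not say that they came from separate cultures, and the p-values measure the spread between these libraries.

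In canonical WNT signalling, a WNT ligand at its receptors stops a destruction complex from degrading beta-catenin, the product of CTNNB1. Beta-catenin then enters the nucleus and acts with DNA-binding partners of the TCF/LEF family, of which TCF7 and LEF1 are members. Several genes it switches on dampen the signal again. AXIN2 is a scaffold of the destruction complex, NOTUM is a secreted enzyme that removes the lipid from WNT ligands, DKK1 is a secreted antagonist of the LRP co-receptors, and RNF43 and ZNRF3 are membrane E3 ligases that remove WNT receptors from the cell surface. LGR4 and LGR6 are receptors for R-spondins, ligands that counteract RNF43 and ZNRF3.

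Total gene counts were 32528913 to 63882077 in the A libraries, 18699929 to 22375644 in the untreated B libraries and 33260167 to 43713947 in the PDS libraries. The share of counts on ribosomal RNA genes was 0.217% to 0.474% in untreated B libraries and 0.0163% to 0.0369% after PDS, so depth and this share moved together with PDS treatment. Their part in the PDS results was not tested beyond thinning each B library to 18699929 counts, after which 5 of the 10 genes were still called after 2 h of PDS in PEO4 B and 4 after 6 h. The 10 markers of the tumour summed to between 4945 and 14126 CPM (PAX8 averaged 113 to 331 CPM, the counts of a gene scaled to a library of fixed size, over the conditions), although FOLR1 was at 3 counts or fewer in each PEO1 B library that was untreated or given PDS for 2 h. In PEO4 B several of these markers differed between untreated cells and 6 h of PDS, with means of 545 and 51.6 CPM for MUC16, 651 and 133 CPM for MSLN and 33.7 and 1.16 CPM for FOLR1, while CDH6 averaged 30.1 CPM untreated, 223 CPM at 2 h and 86.8 CPM at 6 h. The markers did not move together. KRT7 (1046 and 1685 CPM) and EPCAM (397 and 571 CPM) were higher at 6 h. PAX8 (226 and 157 CPM) and WT1 (166 and 121 CPM) were lower, and KRT8 (2872 and 2597 CPM) and KRT18 (1589 and 1603 CPM) changed less. Of 4 leukocyte genes, PTPRC and CD3E were at 3 counts or fewer in each library, CD14 averaged 1.06 to 5.90 CPM and CD68 24.9 to 72.4 CPM. The sum of the 4 was 28.3 to 83.8 CPM over all libraries, and in PEO4 B 33.8 to 57.1 CPM untreated and 70.2 to 83.8 CPM after PDS. The summed level of 5 fibroblast genes was 29.7 to 31.0 CPM in untreated PEO4 B and 3.29 to 12.2 CPM after PDS, most of it COL1A1 and COL1A2, while DCN averaged 0.0768 CPM and LUM 0.241 CPM in untreated PEO4 B and both were at 3 counts or fewer after PDS. The part of these markers in the results below was not tested, and in bulk RNA fewer cells of a type and less RNA per cell cannot be told apart.

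**Figure D1:**
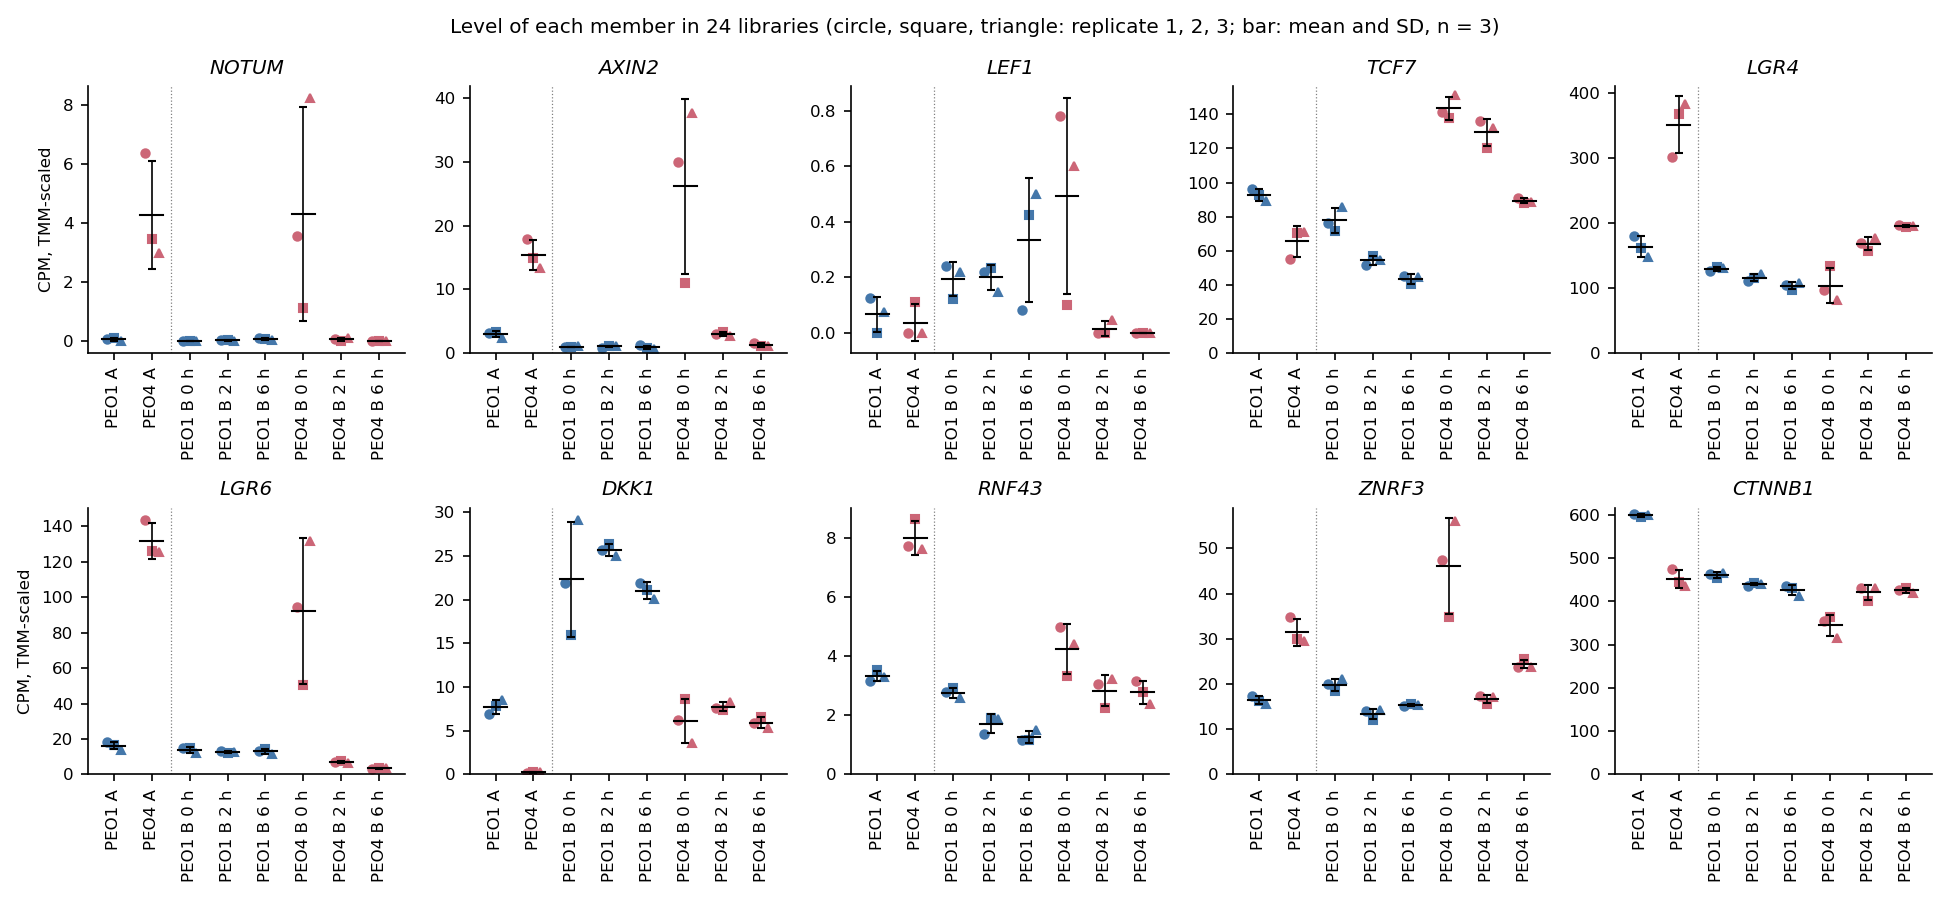
Level of each of the 10 genes in 24 libraries, in TMM-scaled CPM on a linear axis, by condition (0 h is untreated). Symbols are replicates and bars are the mean and SD. NOTUM, AXIN2 and LGR6 stood high in untreated PEO4 and low in PEO4 B after PDS, while LGR4 stood highest in PEO4 A and in PEO4 B after 6 h. The tables of A and B lines were normalised separately, as the dotted line marks.

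Since PDS binds G4s, the 250 bases before the annotated starts were searched for the G4 motif, written as 4 runs of at least 3 G with 1 to 7 bases between runs, and for the TCF/LEF motifs CTTTGAT and CTTTGAA, on both strands. RefSeq promoters (GRCh38.p14) matched 7 of the 10 genes, with 11 start windows. NOTUM, AXIN2 and ZNRF3 were not analysed here for these motifs. A G4 match stood in 4 windows, against 23.5% of 35116 promoters of the same length, CTTTGAA in 1 window, against 3.8%, and CTTTGAT in 0 windows, against 2.26%. A match describes letters only. The 4 windows with a G4 match are shown because they hold this motif, and LGR4, which has no match, is shown as the receptor with higher levels after PDS in PEO4 B. The motif was not compared with the G4s that the study mapped in these cells, and its part in the response to PDS was not tested. Sequences run 5′ to 3′ on the strand of the gene, and capitals mark matches; in DKK1 and CTNNB1 the G4 match is on the opposite strand and appears as runs of C, and in DKK1 the last 7 capitals are CTTTGAA, which does not overlap the G4 match. They lie at chr5:134115363-134115612 (TCF7, start 1 of 2, plus strand), chr1:202213829-202214078 (LGR6, start 3 of 3, plus strand), chr10:52314031-52314280 (DKK1, plus strand), chr3:41199255-41199504 (CTNNB1, plus strand) and chr11:27472791-27473040 (LGR4, minus strand).
TCF7 start 1: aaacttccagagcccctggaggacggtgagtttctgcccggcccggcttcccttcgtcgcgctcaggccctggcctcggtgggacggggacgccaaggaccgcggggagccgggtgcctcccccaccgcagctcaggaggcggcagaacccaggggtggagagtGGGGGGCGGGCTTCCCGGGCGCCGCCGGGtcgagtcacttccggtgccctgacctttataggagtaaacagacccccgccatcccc
LGR6 start 3: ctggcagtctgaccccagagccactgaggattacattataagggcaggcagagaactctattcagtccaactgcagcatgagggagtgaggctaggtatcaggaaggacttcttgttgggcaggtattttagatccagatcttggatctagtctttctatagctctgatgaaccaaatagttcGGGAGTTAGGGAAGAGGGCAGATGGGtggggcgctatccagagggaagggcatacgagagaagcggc
DKK1: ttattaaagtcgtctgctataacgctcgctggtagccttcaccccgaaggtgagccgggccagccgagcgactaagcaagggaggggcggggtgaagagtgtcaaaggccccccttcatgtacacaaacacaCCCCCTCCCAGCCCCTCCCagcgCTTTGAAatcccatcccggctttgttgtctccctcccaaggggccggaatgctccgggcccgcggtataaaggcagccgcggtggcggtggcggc
CTNNB1: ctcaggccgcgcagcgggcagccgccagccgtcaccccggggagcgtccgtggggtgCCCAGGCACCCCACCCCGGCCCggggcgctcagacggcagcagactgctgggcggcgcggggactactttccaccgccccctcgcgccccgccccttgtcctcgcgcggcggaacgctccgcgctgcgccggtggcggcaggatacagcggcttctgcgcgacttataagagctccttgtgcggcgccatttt
LGR4: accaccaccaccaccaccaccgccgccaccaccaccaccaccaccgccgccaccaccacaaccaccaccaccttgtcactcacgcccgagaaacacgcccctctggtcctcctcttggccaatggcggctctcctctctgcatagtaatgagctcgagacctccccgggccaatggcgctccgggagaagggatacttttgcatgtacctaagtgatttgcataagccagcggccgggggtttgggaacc

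In the untreated A lines, 5 of the 10 genes were higher in PEO4 A than in PEO1 A (NOTUM, AXIN2, LGR4, LGR6 and RNF43) and DKK1 was lower. Here and below, a gene was called where its adjusted p from edgeR was under 0.05 and its log2 fold change was beyond 1 in either direction. Of the 15882 genes tested, 25.8% were called, and 9 of the 10 genes were tested, of which 6 were called (5 higher, against 12.6% of all genes, and 1 lower, against 13.1%). LEF1 was not tested, with 0 to 6 counts per A library. NOTUM was kept for testing only through PEO4 A, so a call of it here could hardly go another way. In each of the 9 tested genes the 3 PEO4 A libraries lay apart from the 3 PEO1 A libraries, which was also true of 67.9% of all genes tested.

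NOTUM, on the minus strand of chromosome 17 of GRCh38 from 81952507 to 81961187, had 2, 4 and 0 counts in PEO1 A and 413, 122 and 97 in PEO4 A (replicates 1 to 3, here and below). These were 4.26 ± 1.83 CPM in PEO4 A (SD, n = 3), and the ratio of pooled counts was 110-fold with an exact interval of 50.2 to 300 for counting error. AXIN2, on the minus strand of chromosome 17 from 65528563 to 65561648, stood at 3.14, 3.31 and 2.37 CPM in PEO1 A and at 17.98, 14.9 and 13.3 CPM in PEO4 A. Its log2 fold change was 2.40 (SE, the standard error, 0.172, adjusted p = 1.2e-07). Both inhibitors were thus higher in each PEO4 A library than in any PEO1 A library.

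LGR6, on the plus strand of chromosome 1 from 202193799 to 202319761, had 16.2 ± 2.15 CPM in PEO1 A and 132 ± 10.3 CPM in PEO4 A (SD, n = 3 each), which differed by a log2 fold change of 3.02 (SE 0.106, adjusted p = 2.2e-10). LGR4, on the minus strand of chromosome 11 from 27365961 to 27472790, was higher by 1.10 on the log2 scale (SE 0.104, adjusted p = 1.5e-06), from 163 ± 16.1 to 352 ± 43.96 CPM. Both R-spondin receptors were therefore higher in PEO4 A. RNF43, on the minus strand of chromosome 17 from 58352500 to 58417534, was higher by 1.26 on the log2 scale (adjusted p = 1.3e-05), and ZNRF3, on the plus strand of chromosome 22 from 28883572 to 29057488, gave a log2 fold change of 0.94 (adjusted p = 4.4e-06), which is under the fold threshold but passed it, at 1.002, with upper-quartile scaling. DKK1, on the plus strand of chromosome 10 from 52314281 to 52317657, went the other way. It had 6.92, 7.82 and 8.47 CPM in PEO1 A and 0.154, 0.284 and 0.245 CPM in PEO4 A, a log2 fold change of -5.15 (SE 0.26, adjusted p = 5.2e-09). The PEO4 A values rest on 10, 10 and 8 counts, so the size of the fold is uncertain. DKK1 was kept for testing through PEO1 A, so a call of it here could hardly go another way. TCF7 (plus strand of chromosome 5 from 134108218 to 134148210) and CTNNB1 (plus strand of chromosome 3 from 41199505 to 41240443) were not called, with log2 fold changes of -0.50 (adjusted p = 0.00064) and -0.41 (adjusted p = 0.00041).

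In the untreated B lines, where both lines have BRCA2 function, NOTUM, AXIN2, LGR6 and ZNRF3 were higher in PEO4 B and DKK1 was lower. These 5 of the 10 genes compare with 24.8% called among all 17020 genes tested (12.2% higher and 12.6% lower). In 8 of the 10 the libraries of the lines lay apart, against 68.5% of all genes tested. NOTUM had 0 counts in the 3 PEO1 B libraries and 82, 22 and 179 counts in PEO4 B, whose mean is at least 32.3-fold higher when each PEO1 B library is set at 3 counts (adjusted p = 7.8e-05). With only the untreated libraries in the fit, the call of NOTUM was lost. NOTUM was kept for testing only through untreated PEO4 B, so a call of it here could hardly go another way. AXIN2 stood at 0.957 ± 0.04999 CPM in PEO1 B and at 30.0, 10.9 and 37.7 CPM in PEO4 B, a log2 fold change of 4.77 (SE 0.431, adjusted p = 1.9e-07). LGR6 had 14.9, 15.04 and 11.99 CPM in PEO1 B and 94.4, 50.2 and 132 CPM in PEO4 B, a log2 fold change of 2.72 (SE 0.268, adjusted p = 7.9e-07). The lowest PEO4 B library was above the highest PEO1 B library in each of these genes.

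ZNRF3 had 19.8 ± 1.35 CPM in PEO1 B and 46.1 ± 10.7 CPM in PEO4 B (SD, n = 3 each), giving a log2 value of 1.22 (adjusted p = 6.9e-09). For DKK1, 21.9, 16.0 and 29.1 CPM in PEO1 B stood against 6.28, 8.59 and 3.55 CPM in PEO4 B, and the log2 fold change was -1.87 (adjusted p = 6.3e-06). LEF1 (minus strand of chromosome 4 from 108047548 to 108168932) had 5, 3 and 5 counts in PEO1 B and 18, 2 and 13 in PEO4 B, and its groups overlapped (log2 fold change 1.38, SE 0.673, adjusted p = 0.074). Without PEO4 B replicate 2 its value was 1.83 and passed the test. LEF1 shares its locus with LEF1-AS1, and since the use of strand in counting is not stated, reads of the pair cannot be told apart. The same holds for LGR4 with LGR4-AS1, RNF43 with TSPOAP1-AS1, ZNRF3 with ZNRF3-AS1, TCF7 with the protein-coding VDAC1, and LGR6, which overlaps 4 annotated genes (a lncRNA, a pseudogene and snoRNAs).

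Set beside each other, the 2 pairs of lines gave log2 fold changes of the same sign for NOTUM, AXIN2, LGR6, DKK1, RNF43, ZNRF3 and CTNNB1. TCF7 and LGR4 had opposite signs. TCF7 gave -0.50 in the A lines and 0.88 in the B lines (adjusted p = 1.2e-11), neither past the fold threshold, and LGR4 was called higher in PEO4 A (1.10) and gave -0.33 in the B lines (adjusted p = 0.023, 95% interval -0.58 to -0.07). The tables were normalised separately and the difference between the pairs was not tested.

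**Figure D2:**
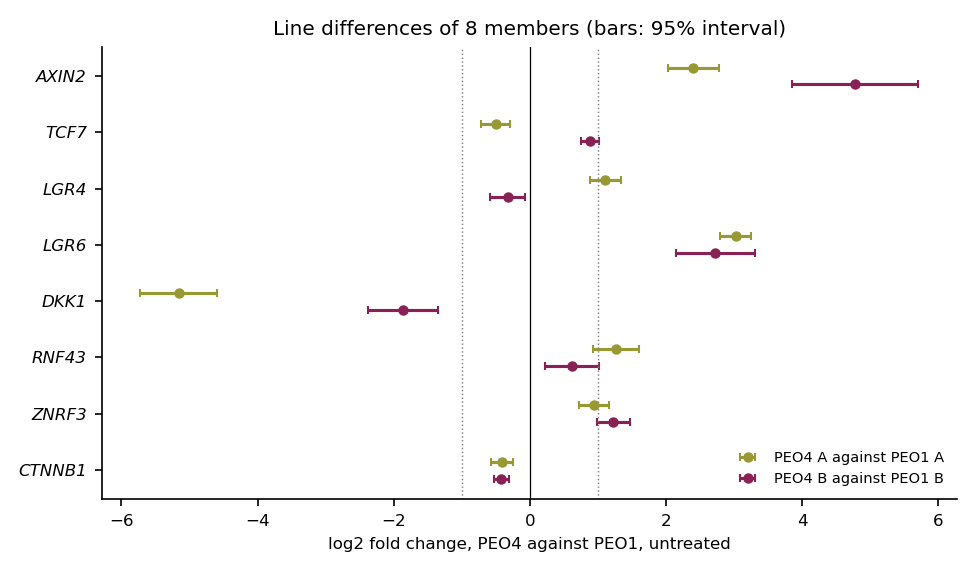
Log2 fold change of 8 of the genes in untreated PEO4 against PEO1, on the horizontal axis, for the A lines and the B lines. Bars are 95% intervals and dotted lines the fold threshold of 1. AXIN2 and LGR6 lay to the right in both pairs, DKK1 to the left (-5.15 and -1.87), and TCF7 and LGR4 on opposite sides of 0. NOTUM and LEF1 are not drawn because of their libraries at or near 0 counts.

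The replicates of untreated PEO4 B were spread widely in several of these genes. Replicate 2 was the lowest of the 3 in 7 of the 10 genes (NOTUM, AXIN2, LEF1, TCF7, LGR6, RNF43 and ZNRF3) and the highest in the other 3 (LGR4, DKK1 and CTNNB1). Its level was 0.187 of the mean of the other replicates for NOTUM, 0.323 for AXIN2, 0.146 for LEF1, 0.443 for LGR6 and 0.673 for ZNRF3. Against these, LGR4 was at 1.501 times and DKK1 at 1.75 times the mean of the others, while TCF7 (0.943) and CTNNB1 (1.08) were close to it. Low levels of NOTUM, AXIN2 and LGR6 thus stood in the same library as high levels of LGR4 and DKK1. Replicate 3 was the reverse, highest in NOTUM, AXIN2, LGR6 and ZNRF3 and lowest in LGR4 and DKK1. In PEO4 A the spread was smaller, and replicate 1 held the highest NOTUM (1.98 times the mean of the others) and AXIN2 (1.27) and the lowest LGR4 (0.801) and DKK1 (0.583). These are single libraries, and the results with replicate 2 left out are given where they differ.

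**Figure D3:**
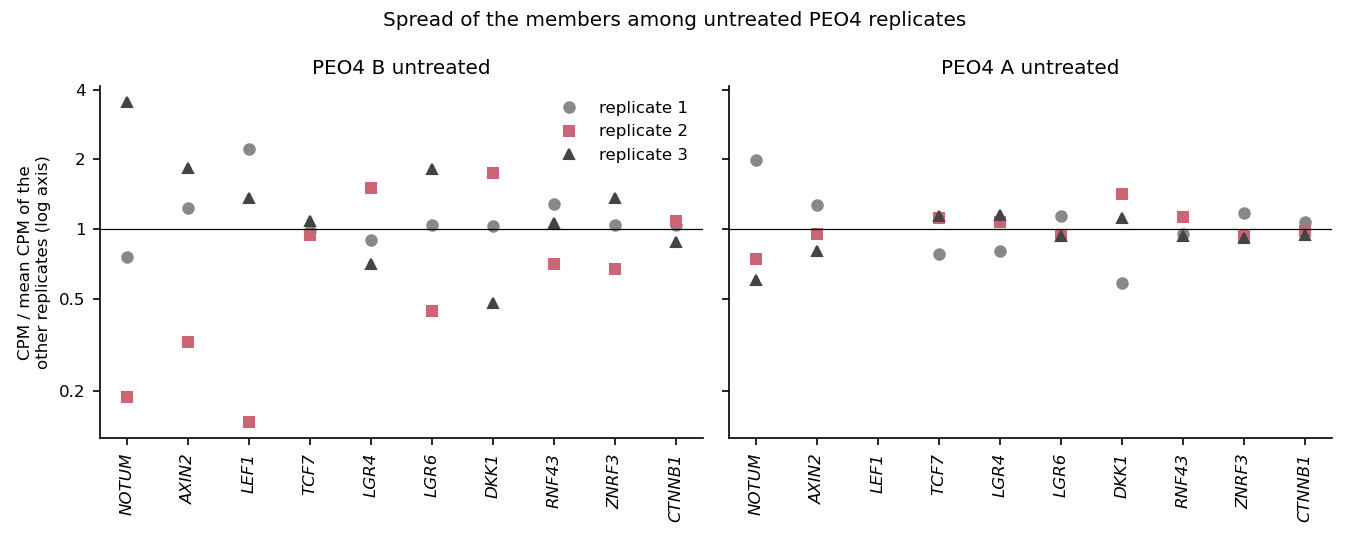
CPM of each untreated PEO4 library divided by the mean of the other replicates of its group, on a log axis, for PEO4 B and PEO4 A. In PEO4 B, replicate 2 lay below 1 for NOTUM (0.187), AXIN2 (0.323), LEF1 (0.146) and LGR6 (0.443) and above 1 for LGR4 (1.501) and DKK1 (1.75). LEF1 of PEO4 A is left out for lack of counts.

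After 2 h of PDS in PEO4 B, 5 of the 10 genes fell (NOTUM, AXIN2, LEF1, LGR6 and ZNRF3) and 0 rose, against 17.4% of all genes called (6.4% higher and 11% lower). After 6 h NOTUM, AXIN2, LEF1 and LGR6 were called lower and 0 genes higher, against 22.6% of all genes (6.26% higher and 16.3% lower). DESeq2 called 5 and 4. NOTUM is among these calls, but it was kept for testing only through untreated PEO4 B, with 0 to 4 counts in each other B library. A call of NOTUM against that group could hardly go another way, so it adds little to these counts. LEF1 had over 10 counts only in libraries of untreated PEO4 B (18, 2 and 13 counts) and of PEO1 B at 6 h (3, 14 and 17). It was kept for testing through these groups, so its calls against them also add little. In 9 of the 10 genes the treated and untreated libraries lay apart at 2 h and likewise at 6 h, against 64.2% and 72.2% of all genes. Both times were compared with the same 3 untreated PEO4 B libraries, which also stand in the comparison of the untreated lines, so high values in them enter each of these comparisons. At 6 h, scaling by library totals shifted the median over all genes by -0.16 on the log2 scale and the share of lower genes among those called from 72.3% to 82.7%, and turned the sign of no called member.

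Of the secreted and scaffold inhibitors, AXIN2 went from 30.0, 10.9 and 37.7 CPM to 2.92, 3.34 and 2.64 CPM after 2 h and to 1.55, 1.07 and 1.11 CPM after 6 h. The log2 fold changes were -3.15 (SE 0.343, adjusted p = 1.8e-06) and -4.38 (SE 0.385, adjusted p = 1.4e-07). At 6 h its libraries overlapped those of PEO1 B, whose mean was between 0.857 and 1.01 CPM at the 3 times. NOTUM went from 82, 22 and 179 counts to 2, 0 and 4 counts after 2 h, a ratio of pooled counts of 82.3 (exact interval 37.4 to 226), and to 0 counts in the 3 libraries after 6 h. With 3 counts put in each of those libraries, NOTUM was by its untreated mean at least 51.0-fold lower at 6 h (adjusted p = 2.8e-05), and at least 70.0-fold lower without untreated replicate 2. DKK1 did not follow. It had 7.58, 7.33 and 8.31 CPM after 2 h and 5.91, 6.59 and 5.27 CPM after 6 h, on both sides of its untreated values, with log2 fold changes of 0.35 (95% interval -0.19 to 0.88) and -0.04 (95% interval -0.60 to 0.51).

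Of the LGR receptors, LGR6 fell, while LGR4 had higher values that stayed under the fold threshold. LGR6 went from 94.4, 50.2 and 132 CPM to 6.83, 7.59 and 6.65 CPM after 2 h (log2 fold change -3.72, SE 0.277, adjusted p = 6e-08) and to 3.27, 3.57 and 3.89 CPM after 6 h (-4.69, SE 0.302, adjusted p = 9.2e-09). Its treated libraries lay below those of PEO1 B, where LGR6 averaged between 12.7 and 13.96 CPM. LGR4 went from 96.5, 133 and 81.2 CPM to 169, 158 and 178 CPM after 2 h and to 197, 195 and 195 CPM after 6 h. The lowest treated library was above the highest untreated library, and the log2 fold changes were 0.70 (SE 0.118, adjusted p = 7.4e-05) and 0.92 (SE 0.118, adjusted p = 3.4e-06), both under the fold threshold. Without untreated replicate 2, the 6 h value was 1.15 and passed it.

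Of the E3 ligases, ZNRF3 fell from 47.4, 34.9 and 56.2 CPM to 17.3, 15.6 and 17.2 CPM after 2 h (log2 fold change -1.46, SE 0.114, adjusted p = 4.8e-10). At 6 h it stood at 23.9, 25.5 and 23.9 CPM, with a value of -0.92 (adjusted p = 2.6e-07) that did not pass the fold threshold. Scaled by library totals or upper quartiles it was -1.08 or -1.03, and without untreated replicate 2 it was -1.08, all past the threshold. From 2 to 6 h its log2 fold change was 0.54 (adjusted p = 0.00033), short of a call, and its libraries at those times lay apart. RNF43, which has under 10 CPM in each library, went from 4.24 ± 0.847 CPM to 2.84 ± 0.526 and 2.77 ± 0.377 CPM (SD, n = 3 each), with log2 fold changes of -0.58 (adjusted p = 0.0064) and -0.61 (adjusted p = 0.0042) that were not called.

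Of the transcription factors and beta-catenin, LEF1 fell, while TCF7 and CTNNB1 were not called. LEF1 had 18, 2 and 13 counts in untreated PEO4 B, 0, 0 and 2 after 2 h and 0, 0 and 0 after 6 h. By the mean of the untreated libraries, it was at least 5.85-fold lower at 6 h with 3 counts put in each treated library (adjusted p = 3.7e-05). Untreated replicate 2, with 2 counts, was itself under that floor. The ratio of pooled counts at 2 h was 28.8 with an exact interval of 7.37 to 248. TCF7, which was at least 138 CPM in each untreated PEO4 B library, went to 129 ± 8.02 CPM at 2 h and 89.2 ± 1.45 CPM at 6 h (SD, n = 3 each), with log2 fold changes of -0.15 (adjusted p = 0.045) and -0.69 (adjusted p = 1.1e-09), neither called. CTNNB1 itself went from 354, 363 and 316 CPM to 431, 401 and 430 CPM and to 425, 431 and 419 CPM. Each treated library was above each untreated library, and the log2 fold changes were 0.29 (adjusted p = 4.9e-05) and 0.30 (adjusted p = 2e-05), also under the threshold.

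In PEO1 B, given the same dose for the same times, 1 of the 10 genes passed the thresholds at 6 h and 0 at 2 h. After 2 h, edgeR called 0 of the 10 genes and DESeq2 0, with 3 genes at an unadjusted p under 0.05, against 7.57% of all genes called (1.18% higher and 6.39% lower). After 6 h RNF43 was called lower, against 8.13% of all genes (1.29% higher and 6.83% lower). Treated and untreated libraries lay apart in 5 of the 10 genes at 2 h and 6 at 6 h, beside 61.8% of all genes at either time. RNF43 had 2.78, 2.93 and 2.59 CPM untreated, 1.35, 1.91 and 1.88 CPM after 2 h and 1.17, 1.15 and 1.497 CPM after 6 h. Each treated library was below each untreated library, and the log2 fold change at 6 h was -1.12 (SE 0.209, adjusted p = 7.6e-05). TCF7 went from 77.8 ± 7.19 to 54.4 ± 2.57 and 43.4 ± 2.64 CPM (SD, n = 3 each), with values of -0.52 and -0.84 (adjusted p = 6.1e-07 and 3e-10) that were not called. ZNRF3 went from 19.8 ± 1.35 to 13.4 ± 1.16 and 15.3 ± 0.196 CPM, with values of -0.56 (adjusted p = 0.00055) and -0.37 (adjusted p = 0.014). LGR6 gave -0.14 and -0.10, with 95% intervals of -0.75 to 0.47 and -0.71 to 0.51. AXIN2 gave 0.09 and -0.15 on 19 to 43 counts per library, with wide intervals of -1.20 to 1.37 and -1.47 to 1.17. NOTUM had 0 to 3 counts in each PEO1 B library, so no fold was computed. LGR4 gave -0.17 and -0.33 (adjusted p = 0.26 and 0.026), DKK1 0.20 and -0.08 (adjusted p = 0.42 and 0.76), CTNNB1 -0.07 and -0.11 (adjusted p = 0.32 and 0.084) and LEF1, on 3 to 17 counts per library, 0.07 and 0.77 (adjusted p = 0.95 and 0.36).

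**Figure D4:**
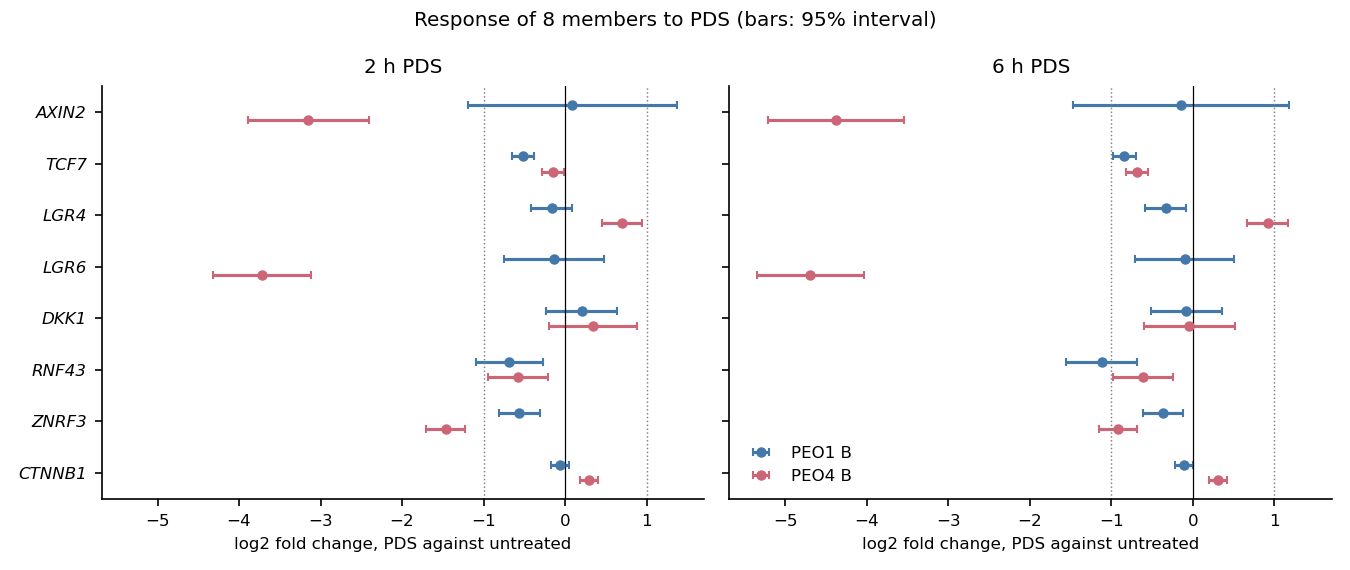
Log2 fold change of 8 of the genes after 2 h (left) and 6 h (right) of 5 µM PDS against untreated cells, on the horizontal axis, in PEO1 B and PEO4 B. Bars are 95% intervals and dotted lines the fold threshold of 1. AXIN2 and LGR6 of PEO4 B lay far to the left (-4.38 and -4.69 at 6 h) while those of PEO1 B lay near 0, and LGR4 of PEO4 B lay to the right. NOTUM and LEF1 are not drawn because some groups had 0 counts.

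Whether the lines responded differently was tested directly, as the response of PEO4 B minus that of PEO1 B. At 2 h the difference was called lower for AXIN2 (-3.24, SE 0.68, adjusted p = 0.002), LEF1 (-4.62, adjusted p = 0.0052) and LGR6 (-3.58, SE 0.39, adjusted p = 1.1e-05), 3 of the 10 genes against 11% of all genes (6.1% higher and 4.92% lower). Without untreated PEO4 B replicate 2, 6 of the 10 were called at 2 h, NOTUM, LGR4 and ZNRF3 in addition. At 6 h it was called lower for AXIN2 (-4.23, adjusted p = 0.00031), LGR6 (-4.59, adjusted p = 1.2e-06), LEF1 (adjusted p = 0.00022) and NOTUM (adjusted p = 0.013) and higher for LGR4 (1.25, SE 0.167, adjusted p = 1.6e-05), 5 genes against 14.8% of all genes (9.34% lower and 5.42% higher). The fitted values of NOTUM and LEF1 rest on groups at 0 counts and are no measure of size, and the call of NOTUM was lost without PEO1 B PDS 6 h replicate 1, after thinning, and with only these groups in the fit. NOTUM had 0 counts in untreated PEO1 B and could not fall there, so its fall in PEO4 B fixed the sign of its difference. LEF1 (5, 3 and 5 counts) and AXIN2 (19, 23 and 23 counts) in untreated PEO1 B also had limited room for a measurable fall. Differences of CTNNB1 (0.35 and 0.42, adjusted p = 0.00067 and 8.1e-05) and ZNRF3 (-0.90 and -0.55, adjusted p = 0.00021 and 0.0084) were not large enough to be called. RNF43 (0.10 and 0.51, 95% intervals -0.45 to 0.65 and -0.06 to 1.08), DKK1 (0.14 and 0.04) and, at 6 h, TCF7 (0.16, adjusted p = 0.18) did not pass the test.

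From 2 to 6 h, AXIN2 in PEO4 B was the 1 gene called, lower by a log2 fold change of -1.23 (SE 0.43, adjusted p = 0.024), against 12% of all genes (2.27% higher and 9.71% lower). The libraries of these times lay apart in 6 of the 10 genes, against 68% of all genes. Leaving out replicate 2 of either time or 6 h replicate 3 ended this call, with adjusted p between 0.035 and 0.084 over the libraries left out. LGR6 went the same way by -0.98 (adjusted p = 0.021), just short of the fold threshold, which it passed under library totals, upper-quartile scaling and thinning. TCF7 gave -0.54 (adjusted p = 1.4e-07), and its 6 h libraries lay below its 2 h libraries. LGR4 (0.22), DKK1 (-0.39), RNF43 (-0.03) and CTNNB1 (0.02) did not pass the test, and NOTUM and LEF1 had 0 to 4 counts in each library of these times. In PEO1 B, edgeR and DESeq2 each called 0 of the 10 genes between 2 and 6 h, with 2 genes at an unadjusted p under 0.05, against 0.17% of all genes (0.0705% higher and 0.0999% lower), and the libraries of these times lay apart in 5 of the 10, against 31.3%.

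After PDS, LGR6 stood in the reverse order between the lines. The log2 fold changes of LGR4 and, on few counts, LEF1 also changed sign, but the untreated libraries of the lines overlapped in both genes. AXIN2, TCF7, DKK1, RNF43 and ZNRF3 kept the sign they had in the untreated pair. LGR4 gave -0.33 untreated and 0.92 at 6 h (adjusted p = 2.9e-06), neither past the fold threshold. At 6 h of PDS, AXIN2 no longer passed the test between PEO4 B and PEO1 B (log2 fold change 0.54, 95% interval -0.60 to 1.68), and LGR6 was lower in PEO4 B (-1.87, SE 0.314, adjusted p = 0.00014). LEF1 was at least 3.97-fold lower in PEO4 B by the mean of PEO1 B (adjusted p = 0.00018). PEO1 B had 3, 14 and 17 counts there, so its replicate 1 was itself at the floor of 3 counts. The group also helped to keep LEF1 for testing. RNF43 (1.13, adjusted p = 1.9e-05) and TCF7 (1.04, adjusted p = 5.9e-13) were higher, and DKK1 (-1.83, adjusted p = 3.4e-06) was lower, as in the untreated pair. These 5 calls compare with 23% of all genes (9.52% higher and 13.5% lower), and the libraries of the lines lay apart in 8 of the 10, against 75.6%. The value of TCF7 was 0.99 without PEO1 B PDS 6 h replicate 2. At 2 h, 4 genes were called, AXIN2 (1.54) and TCF7 (1.25) higher and LEF1 (-3.25) and DKK1 (-1.73) lower, against 26.5% of all genes (13.9% higher and 12.6% lower), and the libraries lay apart in 9 of the 10, against 75.8%. LEF1 rested there on 2 pooled counts in PEO4 B, with a ratio of pooled counts of 11.4 (exact interval 2.79 to 100).

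Ranked by mean level over the 6 B conditions, untreated PEO4 B held the highest level of NOTUM, AXIN2, LEF1, TCF7, LGR6, RNF43 and ZNRF3 and the lowest of CTNNB1. It was separate in range from the next condition in each of these except LEF1, whose top 4 conditions overlapped in turn. LGR4 was highest in PEO4 B after 6 h, followed by PEO4 B after 2 h and untreated PEO1 B, each separate from the next in this order, although untreated PEO4 B, with its wide spread, reached as high as PEO1 B. The 3 PEO1 B conditions were highest in DKK1, and untreated libraries overlapped those of 2 h and of 6 h in either line, while the 2 h and 6 h libraries lay apart. Per kilobase of exon, the level in untreated PEO4 B was 29.3 CPM for CTNNB1, 19.7 for LGR6, 16.3 for LGR4, 14.2 for TCF7, 6.60 for ZNRF3, 5.04 for AXIN2, 2.76 for DKK1, 1.48 for NOTUM, 0.670 for RNF43 and 0.0919 for LEF1. The length merged all GENCODE exons of a gene (11.76 kb for CTNNB1, 10.09 for TCF7, 6.36 for LGR4 and 4.68 for LGR6). It can exceed that of the transcripts expressed, so this order between genes is rough. After 6 h of PDS, LGR4 stood at 30.8 CPM per kilobase and LGR6 at 0.763, while the untreated levels of this pair had been close on this scale.

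The other 56 genes of the pathway were counted by role. Of the 11 genes of the destruction complex and beta-catenin turnover, all tested, edgeR and DESeq2 each called 0 between the untreated lines in either table, with 8 (A lines) and 4 (B lines) at an unadjusted p under 0.05. Their log2 fold changes ran from -0.998 to 0.78 in the A lines and from -0.62 to 0.41 in the B lines. After 6 h of PDS in PEO4 B, 1 of the 11 was called, APC2, a paralogue of the scaffold APC, at -1.40 (adjusted p = 5e-05). AXIN2, in the same complex, was called in each of these comparisons.

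Of the 42 pathway genes tested in the B table, 9 fell and 2 rose after 2 h of PDS in PEO4 B and 12 fell and 3 rose after 6 h, beside 11% lower and 6.4% higher of all genes at 2 h and 16.3% and 6.26% at 6 h. Their median log2 fold change at 6 h was -0.30, beside -0.03 over all genes tested and -0.80 over the 10 genes above. Of 9 secreted and membrane inhibitors tested, 6 were lower and 1 higher at 6 h, with a median of -1.15. APCDD1, a membrane inhibitor of WNT signalling, had 218, 176 and 281 CPM untreated, 12.6, 12.97 and 11.9 CPM after 2 h and 4.67, 6.35 and 6.59 CPM after 6 h, with a log2 fold change of -5.27 at 6 h (SE 0.198, adjusted p = 8.9e-12). Its treated libraries lay below all untreated PEO4 B libraries and above those of PEO1 B, which had 0.378 to 1.21 CPM. TRABD2A, a membrane protease that inactivates WNT ligands, rose by 2.93 (SE 0.241, adjusted p = 1e-10) from 0.216, 0.804 and 0.599 CPM to 4.25, 4.03 and 3.83 CPM.

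Of the other target genes, BAMBI, a pseudoreceptor of the TGF-beta family, went from 208, 69.5 and 196 CPM to 14.3, 16.2 and 16.0 CPM after 6 h (log2 fold change -3.35, adjusted p = 5.5e-07). CD44, a cell surface glycoprotein, went from 83.9, 140 and 51.3 CPM to 568, 550 and 551 CPM (2.60, adjusted p = 5.3e-07). In untreated PEO4 B, BAMBI was lowest and CD44 highest in replicate 2, the library in which AXIN2 was lowest. Of 12 nuclear partners of beta-catenin, 3 fell and 1 rose after 6 h. TLE2, a corepressor that binds TCF/LEF factors, went from 27.9, 14.8 and 34.8 CPM to 1.22, 1.43 and 1.47 CPM (-4.24, adjusted p = 2.3e-09), and BCL9, a coactivator, fell by 1.10 (adjusted p = 2.8e-11). Of the R-spondins and LGR5, 1 of 5 genes had enough counts to be tested, RSPO4, at -0.54 after 6 h, not called. From 2 to 6 h, 4 of the 42 genes fell and 1 rose, among them TLE2 (-1.58, adjusted p = 0.00049), APC2 (-1.35, adjusted p = 5.5e-05) and APCDD1 (-1.10, adjusted p = 0.0003).

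In PEO1 B, 2 of the 42 pathway genes were called after 2 h and 3 after 6 h, all lower, in the list of other targets, beside 7.57% and 8.13% of all genes, so these counts are no larger a share than over all genes. SP5, a transcription factor, gave -1.62 and -1.40 (adjusted p = 2.9e-06 and 1.5e-05), TNFRSF19, a receptor of the TNF family, -1.39 and -1.15 (adjusted p = 2.3e-05 and 0.00017), and TBX3, a T-box factor, -1.23 at 6 h (adjusted p = 1.1e-05). SP5 and TNFRSF19, which are low in these lines, were chosen after their values were seen. The response of PEO4 B minus that of PEO1 B was called for 10 genes at 2 h and 12 at 6 h, beside 11% and 14.8% of all genes. At 6 h it was lower for APCDD1 (-5.24, adjusted p = 3.1e-06), TLE2 (-3.45, adjusted p = 2.8e-06), BAMBI (-3.13, adjusted p = 5.6e-05) and CTNNBIP1, an inhibitor of the binding of beta-catenin to TCF (-1.22, adjusted p = 1.3e-09), and higher for TRABD2A (2.93, adjusted p = 6.5e-09) and CD44 (2.16, adjusted p = 0.00013).

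**Figure D5:**
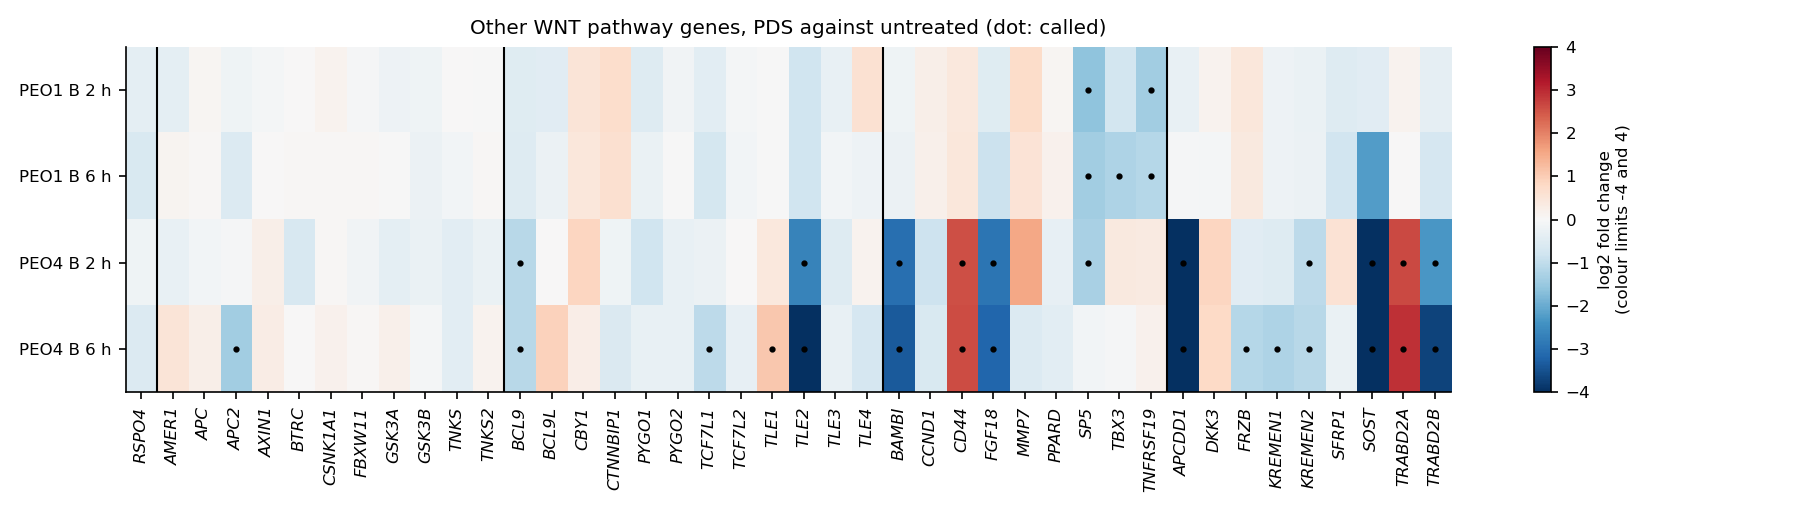
Log2 fold change after PDS of the 42 other pathway genes tested in the B lines, by colour, with a dot for each call. Blocks from left to right are R-spondins, destruction complex, nuclear partners, other targets and inhibitors. There are 11 calls at 2 h and 15 at 6 h in PEO4 B, where 17.4% and 22.6% of all genes were called, and 2 and 3 in PEO1 B, where 7.57% and 8.13% were. The destruction complex holds 1, APC2.

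Between the untreated lines, 14 of 43 tested pathway genes were called in the A lines (5 higher and 9 lower in PEO4 A), beside 25.8% of all genes (12.6% higher and 13.1% lower), and of the 10 other targets 1 was higher and 5 lower. In the B lines, 16 of 42 were called (6 higher and 10 lower), beside 24.8% of all genes (12.2% higher and 12.6% lower), and of the 9 other targets 1 was higher and 5 lower, with a median log2 fold change of -1.39 for that list beside 1.05 for the 10 genes above and 0.00 over all genes tested. CD44 was lower in PEO4 B by -3.02 (adjusted p = 1.4e-07), and TBX3 had 298, 255 and 347 counts in PEO1 B and 2, 0 and 8 in PEO4 B. TNFRSF19 had 283, 284 and 419 counts in PEO1 A and 0 in each PEO4 A library, and MMP7, a matrix metalloproteinase, 683, 124 and 204 counts against 4, 2 and 2. TNFRSF19 and MMP7 were kept for testing only through PEO1 A. A call of them could hardly go another way, so they add little to the lower targets counted. The counts of TBX3 in untreated PEO4 B would likewise not have kept it by themselves. Of the inhibitors, APCDD1 was higher in PEO4 B (7.92, adjusted p = 1.6e-12), while TRABD2A was lower in PEO4 in both tables (-5.62 and -5.25, adjusted p = 1.2e-10 and 3.4e-17) and SFRP1, a secreted frizzled-related antagonist, was lower in PEO4 A (-4.20, adjusted p = 0.00036). TLE1, another corepressor, was lower in PEO4 in both tables (-1.69 and -1.47, adjusted p = 1.3e-08 and 2e-17), TLE4 in PEO4 A (-2.26, adjusted p = 8.9e-06) and PYGO1, a coactivator, in PEO4 B (-1.17, adjusted p = 8.2e-09). These are the genes named by size in each table and not genes particular to it. The mean of TLE4 was also lower in untreated PEO4 B (2.61 against 5.72 CPM in PEO1 B). That of PYGO1 was also lower in PEO4 A (11.1 against 20.8 CPM in PEO1 A). RSPO4, an R-spondin, was lower in PEO4 B by a log2 fold change of -1.30 (adjusted p = 4.6e-13).

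The genes whose profile over the 6 B conditions lay closest to that of each responding gene were found among 10242 genes, by the root mean square difference of condition means of log2 CPM after centring. Closest to AXIN2 was BMP7, a bone morphogenetic protein, at 0.26, and then TIMP3, an inhibitor of metalloproteinases, at 0.35. The same 2 genes were closest to NOTUM, at 0.67 and 0.90. LGR6 lay closest to CLIC5 (0.37) and DLX3 (0.40), LEF1 to EFNB1 (0.27) and FYN (0.29), RNF43 to EXPH5 (0.07) and HDAC4 (0.13), and ZNRF3 to GPR157 (0.09) and WT1-AS (0.10). These are descriptions over 6 condition means that share libraries, and they carry no test.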

How the data were processed

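RNA-seq was analysed from the gene counts that the authors deposited in 2 tables, with the 6 A libraries in 1 table and the 18 B libraries in the other. The submitters' processing notes name FastQC, fastp, STAR and featureCounts and the build hg38; versions, annotation and use of strand are not given in the sources used here. A libraries were made with a directional poly(A) kit, and the kit of the B libraries is not given in those sources. Samples were grouped by their labels.

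Each table was fitted alone, so nothing was tested between A and B lines. Genes were kept by filterByExpr (minimum count 10, minimum total 15), scaled by TMM and tested two-sided with edgeR 4.0.16 (robust quasi-likelihood, R 4.3.3), all groups of a table in the fit and no covariate. Adjusted p is Benjamini-Hochberg over all genes tested; thresholds were 0.05 and an absolute log2 fold change of 1. CPM used TMM-scaled totals. Groups at 0 counts were bounded with 3 counts per library, set against the mean of the other group, so single libraries can lie nearer the bound. Intervals are 95%, and those of pooled counts cover counting error only. Alternatives were DESeq2 1.42.0, other scalings, no filter, thinning, a replicate block, only the groups compared, adjusted p alone and leaving out each library. Scripts were tested on simulated data. All replicate pairs differed by more than sampling noise. The lines of each table without readable counts (2 and 1) were left out.

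All 10 genes were to be named, and the text gives values for those that a comparison turns on. Of each pathway list, the 2 called genes with the largest absolute log2 fold change and a mean log2 CPM of at least 1 were named, and as genes of similar profile the 2 with the smallest difference, among genes with a mean log2 CPM of at least 3 (prior count 2). The genes and lists were chosen with earlier results of these data known.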

Additional observations from a re-analysis of the deposited data

Results flagged for a closer look

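The response to PDS differed between PEO4 B and PEO1 B by the test of the difference itself (edgeR, adjusted over all genes) in 3 of the 10 genes at 2 h and 5 at 6 h. At 2 h the difference, PEO4 B minus PEO1 B on the log2 scale, was -3.24 for AXIN2, -4.62 for LEF1 and -3.58 for LGR6. At 6 h it was -14.02 for NOTUM, -4.23 for AXIN2, -7.76 for LEF1, -4.59 for LGR6 and 1.25 for LGR4, the 1 gene with a positive difference. The values of NOTUM and LEF1 are fitted against groups at 0 counts and give no size. NOTUM could not fall from 0 counts in untreated PEO1 B, so its direction followed from its fall in PEO4 B. Its call was also lost without PEO1 B PDS 6 h replicate 1, after thinning, and with only these groups in the fit. LEF1 and AXIN2 had few counts in untreated PEO1 B, which limited how far a fall could be seen there.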

How the results depend on the processing

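Of the recomputed single-gene values, 1699 kept their direction and side of the thresholds, 21 passed them anew, 9 no longer did and 30 changed sign, none of them in a result that was called. With library totals, PEO1 B at 2 h gave -0.060 for AXIN2 and -0.075 for LEF1, and PEO4 B at 6 against 2 h -0.015 for CTNNB1; with upper quartiles these were -0.00736 for LEF1 and -0.034 for CTNNB1. Thinned counts gave -0.81 for NOTUM in PEO1 B and 0.095 for RNF43 in PEO4 B at 6 against 2 h, and -0.17 for the 2 h difference of RNF43. Leaving out single libraries, DKK1 ranged from -0.27 to 0.17 (PEO1 B at 6 h), -0.31 to 0.27 (PEO4 B at 6 h), -0.13 to 0.44 (2 h difference) and -0.23 to 0.34 (6 h difference), and RNF43 from -0.17 to 0.079 (PEO4 B, 6 against 2 h) and -0.050 to 0.24 (2 h difference). In PEO1 B, AXIN2 ranged from -0.44 to 0.030 at 6 h, LEF1 from -0.17 to 0.25 at 2 h and LGR6 from -0.033 to 0.11 at 6 against 2 h. CTNNB1 ranged from -0.027 to 0.012 between the B lines at 6 h and from -0.014 to 0.040 in PEO4 B at 6 against 2 h. With the adjusted p alone and no fold threshold, the counts of the 10 genes were 9 (B lines untreated), 8 (B lines at 2 h), 3, 4 and 1 (PEO1 B at 2 h, 6 h and 6 against 2 h), 9, 9 and 4 (PEO4 B likewise) and 7 (difference of the 2 h responses). Pathway counts were then 32 (A lines), 33, 32 and 33 (B lines untreated, 2 h and 6 h), 20, 17 and 3 (PEO1 B), 31, 32 and 26 (PEO4 B) and 21 and 25 (differences at 2 h and 6 h). Without a filter on low counts, the pathway counts of PEO1 B were 4 at 2 h and 5 at 6 h.

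Replicate numbers did not pair the libraries (correlations of deviations at most 0.0228 in the A lines and 0.134 in the B lines, with 1 of 45 over 0.1). The replicate block moved the count of PEO4 B at 6 against 2 h from 1 to 2 genes, as did DESeq2, library totals and upper-quartile scaling, and no other count by over 1.5 times. Leaving out single libraries gave 0 to 2 genes there (0 without replicate 2 of either time) and 3 to 6 for the difference of the 2 h responses. The causes were not tested. Depth limits NOTUM and LEF1, and AXIN2 in PEO1 B.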
